A study of Mus musculus with 14 samples.

Results

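The potassium channel genes were taken as all rows whose label begins with Kcn and that were above 0 RPKM (read counts divided by gene length in kilobases and by sequencing depth) in at least 1 of 14 libraries. That rule gave 87 of the 18207 labels above 0. Another 15 labels that begin with Kcn were listed at 0 throughout, among them Kcna1, Kcna5, Kcne2, Kcnj8, Kcnn2 and the antisense RNA Kcnq1ot1. The libraries came from haematopoietic stem cells (HSCs) of C57BL/6 mouse bone marrow, sorted by their calcium into a [Ca2+]high population (calcium-high) and a [Ca2+]low population (calcium-low). Each population had 7 libraries numbered 1 to 7, made from the total RNA of 100 cells each. All samples share the strain, the tissue and the cell type label, and neither an age, a genotype nor a treatment is given. The labels do not say whether libraries came from separate animals, so p-values measure only the spread between these samples.

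Potassium channels let potassium leave the cell down its gradient and so hold the membrane potential negative inside, which is the electrical force that pulls calcium in through open calcium channels. Channels opened by calcium-bound calmodulin return that signal to the potential, and in lymphocytes a calcium-activated channel and a voltage-gated channel are the classic pair that sustains calcium entry. Pore-forming subunits carry the filter that selects potassium, while auxiliary subunits change how a pore opens or reaches the membrane.

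The filter is the sequence that defines the family, and it is shown for 4 pore-forming members that averaged 1 RPKM or more, so that the loops of the channel classes can be compared. Each run is 30 bases of coding sequence read 5′ to 3′ from GRCm38, and the capitals mark the glycine, tyrosine or phenylalanine, and glycine codons of the filter.
Kcna3 (chr3:107037602-107037631, plus strand): accatgacaactgttGGTTATGGTgatatg
Kcnh6 (chr11:106019067-106019096, plus strand): agcctcactagtgtgGGCTTCGGCaatgtg
Kcnj13 (chr1:87389015-87389044, minus strand): acacaacttacaattGGTTATGGTaccatg
Kcnk5, upstream pore loop (chr14:20145109-20146516, minus strand): gtcatcaccaccatcGGTTATGGCaatgtg
Kcnk5, downstream pore loop (chr14:20144642-20144671, minus strand): accatctccaccattGGCTTTGGGgacttt
Kcnk5 has 2 such loops per subunit, which is why its class is called two-pore domain, and the upstream run is joined across an intron. Tyrosine stood in the middle codon of Kcna3, Kcnj13 and the upstream loop of Kcnk5. Phenylalanine stood there in Kcnh6 and in the downstream loop of Kcnk5.

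The files put the stem cell markers where the label has them: all 8 HSC markers (Slamf1, Procr, Kit, Fgd5, Mecom, Hlf and Ptprc among them) averaged at least 1 RPKM, with sums of 173 to 326 RPKM in the calcium-high and 167 to 251 RPKM in the calcium-low libraries. Replicate 3 and calcium-high 5 and 6 stood apart. The 6 neutrophil markers summed to at most 27.8 RPKM in the calcium-high libraries, against 753 RPKM in calcium-low 3 and at most 1.5 RPKM in the other calcium-low libraries. Erythroid markers were highest in replicate 3 of each group, at 76.5 RPKM in calcium-high 3 beside 144 RPKM in calcium-low 3. Macrophage and monocyte markers came to 183 RPKM in calcium-high 5, to 152 RPKM in calcium-high 6 and to at most 82.8 RPKM in every other library, most of it Lyz2. Summed reads of 4 genes of the Y chromosome came to 1298 to 1638 in calcium-high and calcium-low libraries 1 and 2, and to 0 to 4 in the remaining 10. The listed genes held 3.58 to 10.3 M reads per calcium-high library and 4.25 to 9.90 M per calcium-low library, less in replicates 1 to 3 than in replicates 4 to 7. At these depths 3 reads in a gene of 1 kilobase came to 0.0808 to 0.210 RPKM, which is what a gene listed at 0 could still have had by counting error alone.

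A few channels held most of the potassium channel transcript. Of the 87 members, 8 averaged 1 RPKM or more over the 14 libraries, 18 averaged 0.1 to 1 RPKM and 61 averaged less. The 8 made up 79.6% to 87.2% of the summed RPKM of all members in a library, and Kcnn4, Kcnk5, Kcnab2 and Kcna3 alone made up 58.4% to 77.3%. Members above 0 in every library numbered 24, a further 50 were above 0 in 2 to 13 libraries and 13 in a single one. Calcium-high libraries had 47 to 56 members above 0 and calcium-low libraries 43 to 54. Members above 0 in calcium-high libraries alone were 7 (Kcna7, Kcng4, Kcnk1, Kcnk13, Kcnk2, Kcnma1 and Kcnu1), each in a single library, and 8 were above 0 in the calcium-low libraries alone (Kcnc4, Kcnd2, Kcne1, Kcnh3, Kcnj16, Kcnj3, Kcnk18 and Kcns2), each in 1 or 2 libraries. None of these 15 exceeded 0.142 RPKM in any library, the value of Kcnk18. The share of all labels above 0 in 1 group alone is not given, so these counts carry no comparison with other genes.

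**Figure D1:**
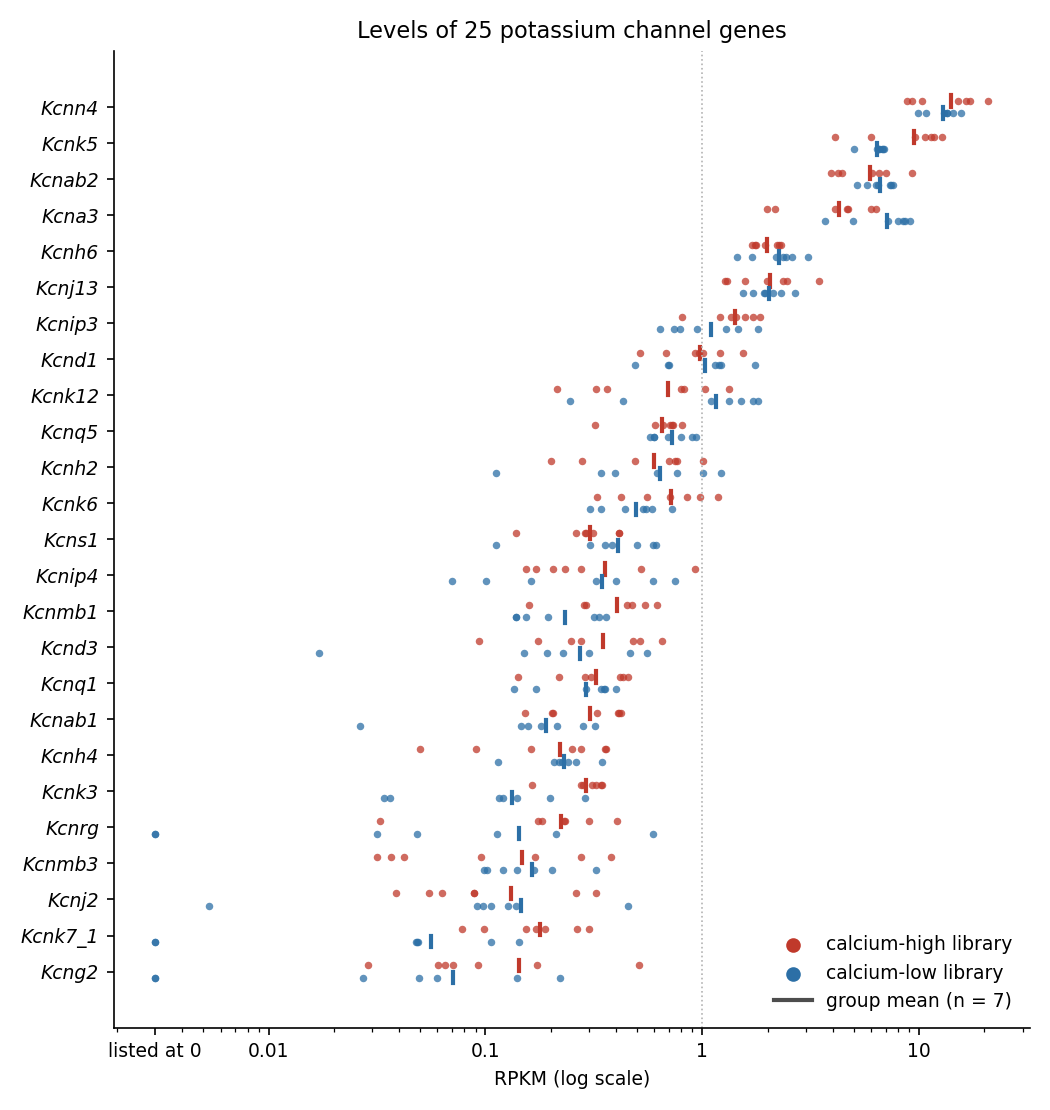
RPKM on a log scale of 25 members that averaged 0.1 RPKM or more, with 1 point per library (calcium-high above calcium-low for each gene), a bar at each group mean (n = 7) and a dotted line at 1 RPKM. Kcnn4 is at the top with 8.75 to 20.8 RPKM in the calcium-high and 9.93 to 15.5 RPKM in the calcium-low libraries, and 8 genes average 1 RPKM or more.

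In order of level over all libraries the 8 were Kcnn4 at 13.4 RPKM, Kcnk5 at 7.93, Kcnab2 at 6.25, Kcna3 at 5.71, Kcnh6 at 2.12, Kcnj13 at 2.04, Kcnip3 at 1.26 and Kcnd1 at 1 RPKM. Kcnn4 was the highest member in 13 of the 14 libraries, and Kcnk5 was above it in calcium-high 1. The means of Kcnk5 and Kcnab2 lay within 1 SD of each other over the libraries, as did those of Kcnab2 and Kcna3, of Kcnh6 and Kcnj13, and of Kcnip3 and Kcnd1. Kcna3 was above Kcnh6 in 13 of 14 libraries, and Kcnj13 was above Kcnip3 in 13 of 14. The second place differed in who held it: in calcium-high libraries it was Kcnk5 in 5, Kcna3 in 1 and Kcnn4 in 1, and in the calcium-low libraries it was Kcna3 in 5 and Kcnk5 in 2.

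Calcium-high libraries were set against calcium-low libraries with limma on log2(RPKM + 1) over all 9921 genes that averaged 1 RPKM or more, with p-values adjusted over all of them by Benjamini-Hochberg and a threshold of 0.05. All 8 members at that level entered it, and the other 79 did not. The fit called 0 genes in all (0.0%) and none of the members, with 669 genes (6.74%) and 2 members, Kcna3 and Kcnk5, at an unadjusted p under 0.05. Libraries with the same replicate number deviated together from their group means, so the fit with that number as a block stands beside it. Libraries of a replicate set also share their depth, and the best partner carried the same number in 5 of 14 libraries. The deviations therefore cannot show that a number marks a pair. The blocked fit called 91 genes (0.917%), of which 48 were higher (0.484%) and 43 lower (0.433%) in calcium-high. Among the 8 members it called 1, Kcna3, as lower. The median log2 fold change was −0.02 over the 8 members and −0.03 over all genes tested, with 3 members higher and 5 lower on average. In none of the 8 did the groups' ranges lie apart, which happened for 0.141% of all genes tested. In these bulk samples fewer cells that express a gene and less of its RNA per cell cannot be told apart.

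Voltage-gated pores were where the called member lay. Kcna3 (GRCm38 chromosome 3, 107036169 to 107038070) encodes the shaker-type channel that sets the resting potential of effector T lymphocytes. In calcium-high libraries 1 to 7 it had 2.16, 1.99, 6.34, 4.09, 5.99, 4.70 and 4.67 RPKM, and in calcium-low libraries 1 to 7 it had 4.94, 3.70, 7.20, 8.45, 7.99, 8.59 and 9.08 RPKM. It was lower in calcium-high in 7 of 7 pairs of libraries with the same number, as were 3.02% of all genes tested, though the groups' ranges overlapped. Replicates 1 and 2, the libraries with reads of Y chromosome genes, had the lowest values within each group. Over both groups together Kcna3 reached 4.94 RPKM in the libraries with those reads, and its lowest value in the others was 4.09 RPKM. The part of that split in Kcna3 was not tested.

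The Kcna3 means were 4.28 ± 1.70 RPKM in the calcium-high and 7.14 ± 2.04 RPKM in the calcium-low libraries (SD, n = 7 each), a log2 fold change of −0.65. Its standard error was 0.11 with the block and 0.22 without it, and the limma adjusted p was 0.0337 with the block and 0.488 without it. The blocked call depended on single pairs. Leaving out 1 pair at a time gave log2 fold changes of −0.73 to −0.61 and limma adjusted p-values of 0.0583 without replicate 1, 0.0675 without 2, 0.00183 without 3, 0.136 without 4, 0.0478 without 5, 0.129 without 6 and 0.153 without 7. In those fits 8, 3, 313, 0, 12, 2 and 0 genes passed in turn. Without pairs 5 and 6 together the log2 fold change was −0.69 (limma adjusted p = 0.157), where 0 genes passed. In replicates 4 to 7 alone the log2 fold change was −0.71 (limma adjusted p = 0.00139), where 831 of the 9751 genes tested passed (8.52%; 1.85% lower and 6.68% higher). In replicates 1 to 3 alone it was −0.57 (limma adjusted p = 0.450), where 0 genes passed. With the replicate set as a term in place of the number, Kcna3 did not pass (limma adjusted p = 0.111), where 51 genes passed.

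The recovered reads of Kcna3 were few in the shallow libraries, 56 to 664 per library, and 1678 in all calcium-high against 2924 in all calcium-low libraries. Fitted on recovered reads with library quality weights (limma-voom), the log2 fold change was −0.83 with the block (adjusted p = 0.00152; 8.46% of genes called, 2.94% as lower) and −0.93 without it (adjusted p = 0.00399; 7.06% called, 2.58% as lower). Markers of lymphocytes are given because Kcna3 is abundant in those cells. Of the T and NK cell markers 8 of 10 matched a label. Cd3e and Cd3g were at 0 in all libraries and Nkg7 alone averaged 1 RPKM or more. Their sum was 4.64 to 19.4 RPKM in the calcium-high and 11.8 to 34.2 RPKM in the calcium-low libraries, nearly all of it Nkg7, a cytotoxic granule gene that had 3.38 to 18.1 RPKM in the calcium-high and 11.4 to 33.0 RPKM in the calcium-low libraries. The part of that difference in Kcna3 was not tested. Of the B cell markers Ms4a1 and Ighm were at 0 and Cd79b alone averaged 1 RPKM or more, with sums of 2.90 to 5.95 RPKM in the calcium-high and 3.25 to 6.27 RPKM in the calcium-low libraries.

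**Figure D2:**
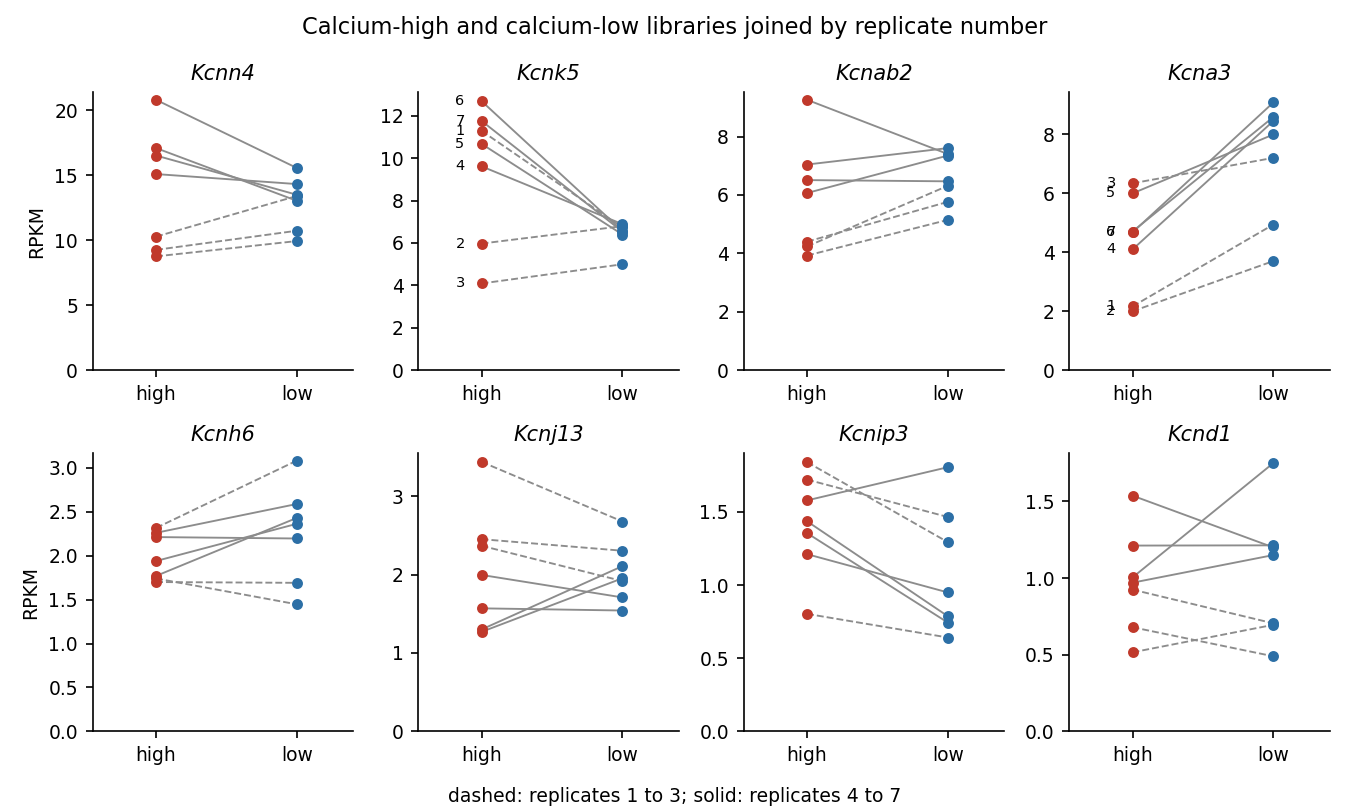
RPKM of the 8 members tested, with calcium-high on the left, calcium-low on the right and a line joining libraries of the same replicate number (dashed for replicates 1 to 3, solid for 4 to 7; numbers beside the calcium-high points of Kcnk5 and Kcna3). For Kcna3 all 7 lines go up towards calcium-low, and for Kcnk5 the lines of replicates 1 and 4 to 7 go down and those of 2 and 3 go up.

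The other voltage-gated pores at this level did not pass. Kcnh6, an ether-a-go-go related channel, had 1.70 to 2.32 RPKM (median 1.94) in the calcium-high and 1.45 to 3.08 RPKM (median 2.36) in the calcium-low libraries. Its log2 fold change was −0.11 ± 0.12 (SE; limma adjusted p = 0.991, and 0.655 with the block). Kcnd1, a fast-inactivating A-type channel, had 0.516 to 1.54 RPKM (median 0.970) in the calcium-high and 0.490 to 1.75 RPKM (median 1.15) in the calcium-low libraries, with a log2 fold change of −0.03 ± 0.15 (SE; limma adjusted p = 0.998). For both genes the range of the calcium-high libraries lay within that of the calcium-low libraries. Summed over the 35 voltage-gated pore members, calcium-high libraries had 10.5 ± 1.99 RPKM and calcium-low libraries 13.6 ± 2.87 RPKM (SD, n = 7 each), of which Kcna3 was 47.4% over all libraries.

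Among the two-pore domain channels, which carry background potassium current, Kcnk5 was the one member at the level tested, and its difference had the opposite sign to that of Kcna3. Kcnk5 (chromosome 14, 20140057 to 20181809, minus strand) encodes a channel opened by alkaline pH outside the cell. In calcium-high libraries 1 to 7 it had 11.3, 5.97, 4.09, 9.62, 10.7, 12.7 and 11.8 RPKM, and in calcium-low libraries 1 to 7 it had 6.73, 6.79, 4.99, 6.89, 6.40, 6.56 and 6.54 RPKM. Calcium-high 1 and 4 to 7 lay above every calcium-low library, while calcium-high 2 and 3 lay below their partners.

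Kcnk5 averaged 9.44 ± 3.21 RPKM in the calcium-high and 6.41 ± 0.649 RPKM in the calcium-low libraries (SD, n = 7 each), with a log2 fold change of 0.43 ± 0.19 (SE). It did not pass in the fit on log2(RPKM + 1), with a limma adjusted p of 0.724 without and 0.192 with the block. It passed in limma-voom on recovered reads, with log2 fold changes of 0.64 without the block (adjusted p = 0.00587; 4.48% of genes called as higher) and 0.52 with it (adjusted p = 0.0127; 5.51% called as higher). Fitted on the libraries numbered 4 to 7, Kcnk5 passed with 0.68 (limma adjusted p = 9.85e-04), where 6.68% of genes were called as higher. That pass is not separate from the one in limma-voom without the block. There these libraries had quality weights of 0.815 to 2.61, and the remaining ones 0.190 to 0.934. In replicates 1 to 3 alone the log2 fold change was 0.09 (limma adjusted p = 0.893). The value depended on which libraries entered. Without pairs 5 and 6 the blocked log2 fold change was 0.29 (limma adjusted p = 0.368). Without replicate 3 in both groups the log2 fold change was 0.54, with a limma adjusted p of 0.0377 with the block and 0.0849 without it. Without replicate 3, 313 of 9879 genes passed with the block (173 as higher) and 122 without it (80 as higher). The recovered reads behind Kcnk5 were 371 to 1948 per library. The calcium difference of Kcnk5 between the replicate sets differed by 0.59 ± 0.30 (SE), beside a median of 0.31 over all genes tested. That difference did not pass (limma adjusted p = 0.2, and 0.088 with the block). After median-of-ratios scaling it was 0.24 ± 0.28 (SE; limma adjusted p = 0.895).

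Relative to Kcna3 within the same library, the level of Kcnk5 was higher in calcium-high in 6 of 7 pairs. The ratio of their RPKM had a median of 2.52 (0.645 to 5.23) in the calcium-high and 0.8 (0.693 to 1.84) in the calcium-low libraries. It exceeded 1 in 6 of 7 calcium-high and 2 of 7 calcium-low libraries, and it was higher in calcium-high in 6 of 7 pairs, with replicate 3 as the exception. Kcnn4 over Kcna3 had a median of 3.64 (1.38 to 4.76) in the calcium-high and 1.60 (1.38 to 2.90) in the calcium-low libraries and was higher in 7 of 7 pairs, although in replicate 3 both libraries had 1.38. Kcnab2 over Kcna3 had a median of 1.55 in the calcium-high and 0.9 in the calcium-low libraries. These ratios share Kcna3, which was itself lower in calcium-high in 7 of 7 pairs, and do not depend on the scaling of a library. The Kcnk5 ratio sets the 2 members with an unadjusted p under 0.05 against each other, so it repeats their differences. The ratios are given as descriptions, without a test.

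**Figure D3:**
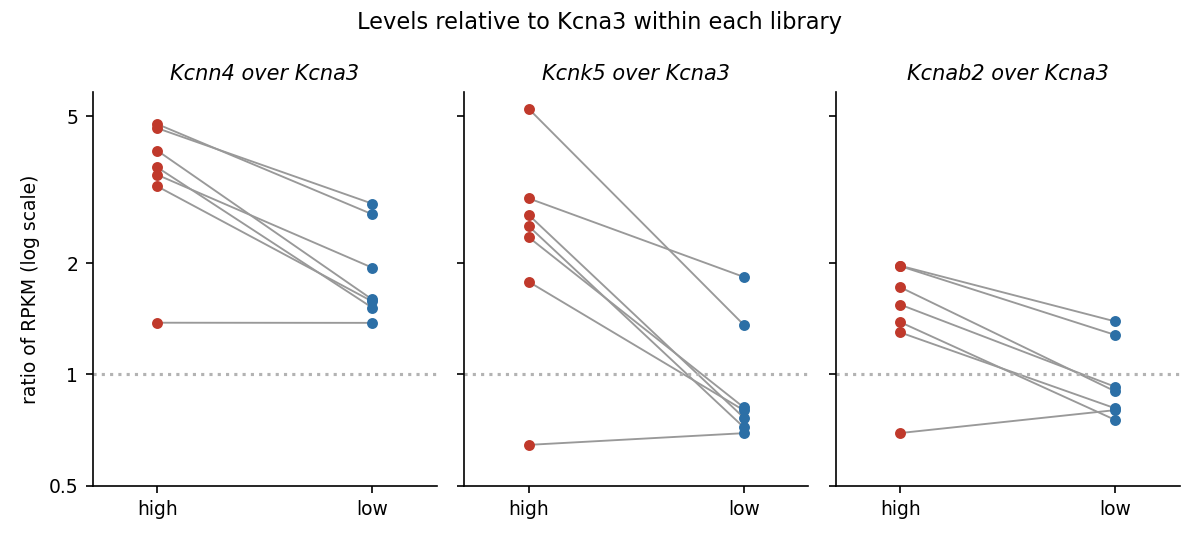
Ratio of the RPKM of Kcnn4, Kcnk5 and Kcnab2 to that of Kcna3 in the same library (log scale), calcium-high on the left and calcium-low on the right, with lines joining libraries of the same replicate number and a dotted line at equal levels. The Kcnk5 ratio exceeds 1 in 6 calcium-high and 2 calcium-low libraries.

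Among the calcium-activated channels, Kcnn4 held nearly all of the transcript, and its difference between the groups did not pass. Kcnn4 (chromosome 7, 24370263 to 24386690, plus strand) encodes the intermediate-conductance channel gated through calmodulin, and it made up 95.8% of the mean RPKM of the 11 members classed as calcium-activated. That class was set by label, not by how each channel opens, and took in Kcnt1, Kcnt2 and Kcnu1. Kcnn4 had 10.3, 9.25, 8.75, 16.5, 20.8, 17.1 and 15.1 RPKM in calcium-high libraries 1 to 7, and 13.4, 10.7, 9.93, 13.5, 15.5, 13 and 14.3 RPKM in calcium-low libraries 1 to 7. Calcium-high 1 to 3 lay below their partners and calcium-high 4 to 7 above theirs. The means were 14 ± 4.61 RPKM in the calcium-high and 12.9 ± 1.97 RPKM in the calcium-low libraries (SD, n = 7 each), with a log2 fold change of 0.06 ± 0.18 (SE; limma adjusted p = 0.998, and 0.871 with the block). Its highest values were in calcium-high 5 and 6, the libraries with the most macrophage and monocyte marker RNA, and without those 2 the log2 fold change was −0.13 (limma adjusted p = 0.906). The part of that RNA in Kcnn4 was not tested.

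The split of Kcnn4 by replicate set is given beside the median of all genes, and its cause was not tested. The log2 fold change of Kcnn4 was −0.24 in replicates 1 to 3, where the median of all genes tested was −0.20. It was 0.28 in replicates 4 to 7, where the median was 0.11. Relative to those medians Kcnn4 differed by −0.04 and 0.17. After scaling each library by the median of ratios over genes, its values were −0.03 in replicates 1 to 3 and 0.12 in replicates 4 to 7. The difference between the sets was 0.51 ± 0.18 (SE; limma adjusted p = 0.117) on the authors' scale and 0.14 ± 0.15 (SE; limma adjusted p = 0.869) after that scaling. Kcna3 and Kcnk5 kept their signs in both sets after the scaling, with −0.39 and 0.29 in replicates 1 to 3 and −0.86 and 0.53 in replicates 4 to 7.

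**Figure D4:**
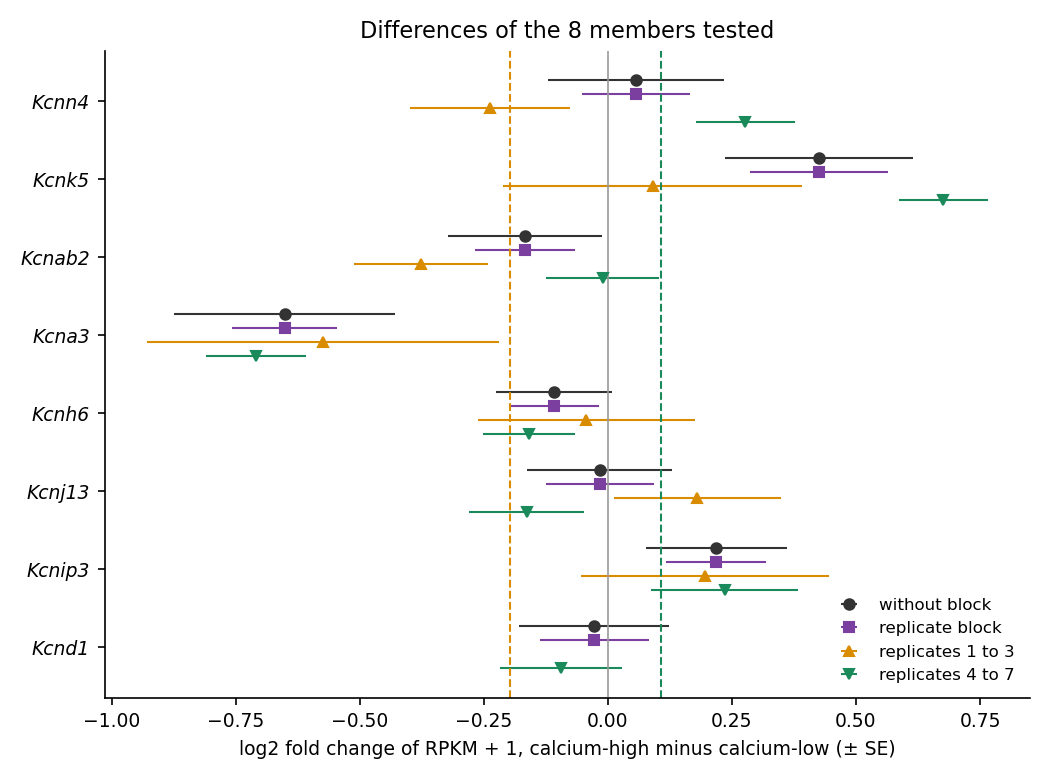
Log2 fold change of RPKM + 1, calcium-high minus calcium-low, with its standard error, for the 8 members under limma without a block, with the replicate block, in replicates 1 to 3 and in replicates 4 to 7; dashed lines mark the median of all genes in each replicate set (−0.20 and 0.11). Kcna3 is below 0 in all 4 fits, at −0.71 to −0.57, and Kcnn4 lies on both sides of 0; Kcnd1 was under the level tested in replicates 1 to 3.

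The large-conductance calcium-activated channel had next to no transcript of its pore. Kcnma1, which encodes that pore, was above 0 in 1 library, calcium-high 5, at 0.00200 RPKM. Its auxiliary subunits Kcnmb1 and Kcnmb3 averaged 0.318 and 0.156 RPKM. Kcnmb1 had 0.158 to 0.620 RPKM (median 0.450) in the calcium-high and 0.138 to 0.361 RPKM (median 0.194) in the calcium-low libraries and was higher in calcium-high in 6 of 7 pairs, which did not pass (limma adjusted p = 0.575 without a filter on low values). The small-conductance members Kcnn1 and Kcnn3 averaged below 0.05 RPKM under every label.

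Of the auxiliary subunits of voltage-gated channels, Kcnab2 and Kcnip3 reached the level tested and neither passed. Kcnab2, the beta subunit that binds Kcna-type pores, had 3.92 to 9.26 RPKM (median 6.07) in the calcium-high and 5.15 to 7.61 RPKM (median 6.47) in the calcium-low libraries. Its exons overlap those of Gm16334 on the same strand. It was lower in calcium-high in 5 of 7 pairs, with a log2 fold change of −0.17 ± 0.15 (SE; limma adjusted p = 0.976, and 0.501 with the block). Kcnip3, a calcium-binding protein that associates with Kcnd-type pores and also represses transcription, had 0.803 to 1.84 RPKM (median 1.44) in the calcium-high and 0.642 to 1.81 RPKM (median 0.949) in the calcium-low libraries. It was higher in calcium-high in 6 of 7 pairs, with a log2 fold change of 0.22 ± 0.14 (SE; limma adjusted p = 0.877, 0.363 with the block, and 0.068 in limma-voom with the block). The groups' ranges overlapped for both genes.

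Kcnj13 was the one inward rectifier above 1 RPKM, a channel known from the retinal pigment epithelium. It had 1.27 to 3.44 RPKM (median 2) in the calcium-high and 1.54 to 2.68 RPKM (median 1.95) in the calcium-low libraries, with a log2 fold change of −0.02 ± 0.15 (SE; limma adjusted p = 0.999) whose sign changed with the scaling, being 0.01 under upper-quartile scaling. Kcnj13 lies on chromosome 1 (87386363 to 87394729, minus strand) and shares exons with Gigyf2 on the opposite strand, which had 5.33 ± 0.601 RPKM in the calcium-high and 5.58 ± 1.01 RPKM in the calcium-low libraries (SD, n = 7 each). The labels do not say that the library kit marks the strand, so reads of Kcnj13 and Gigyf2 cannot be told apart there.

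Added over all roles, the groups' totals lay within 1 SD of each other. All 87 members summed to 47.6 ± 9.79 RPKM in the calcium-high and 46.3 ± 5.18 RPKM in the calcium-low libraries (SD, n = 7 each), higher in calcium-high in 4 of 7 pairs. The calcium-activated members summed to 14.7 ± 4.48 RPKM in the calcium-high and 13.4 ± 1.97 RPKM in the calcium-low libraries. The two-pore domain members summed to 11.5 ± 3.47 RPKM in the calcium-high and 8.33 ± 1.01 RPKM in the calcium-low libraries. The auxiliary subunits summed to 8.24 ± 1.61 RPKM in the calcium-high and 8.49 ± 0.586 RPKM in the calcium-low libraries, and the inward rectifiers to 2.52 RPKM in the calcium-high and 2.37 RPKM in the calcium-low libraries. As a share of all member RPKM, voltage-gated pores held 22.3% ± 3.69 in the calcium-high and 29.1% ± 3.53 in the calcium-low libraries, and two-pore domain channels held 23.8% ± 4.76 in the calcium-high and 18% ± 1.63 in the calcium-low libraries (SD, n = 7 each). These sums follow Kcna3 and Kcnk5, which lead the 2 classes, and carry no test.

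**Figure D5:**
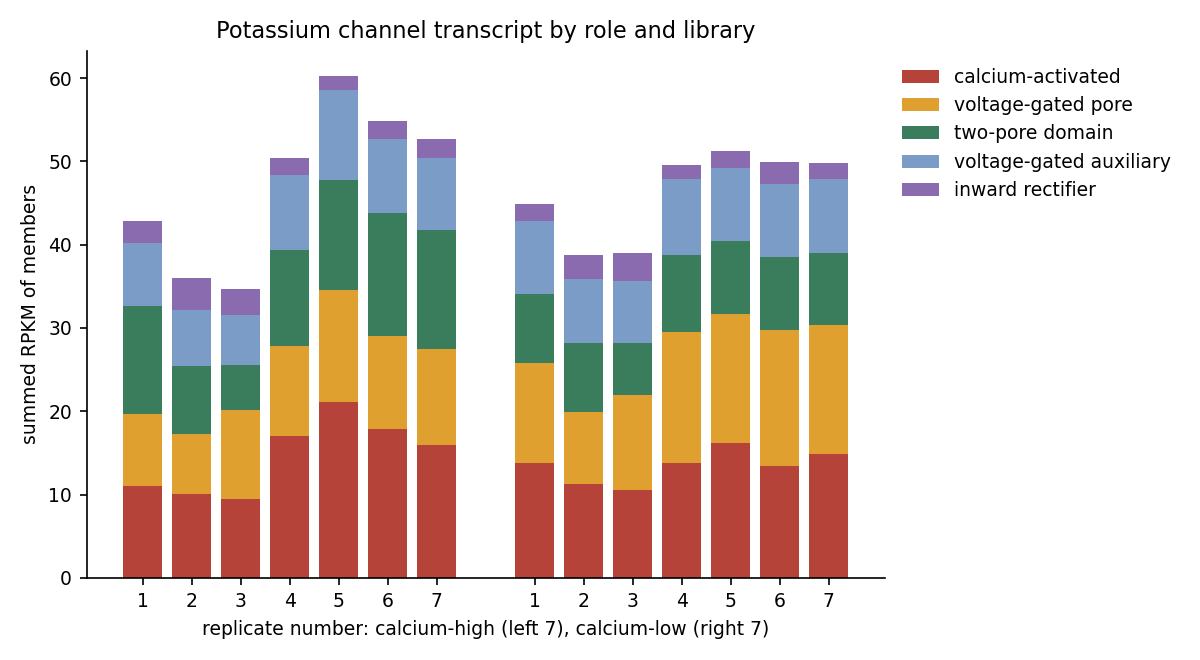
Summed RPKM of the members by role in each library, calcium-high replicates 1 to 7 on the left and calcium-low replicates 1 to 7 on the right. The totals are 34.8 to 60.4 RPKM in the calcium-high and 39.0 to 51.3 RPKM in the calcium-low libraries, lower in replicates 1 to 3 than in 4 to 7 in both groups.

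The 18 members at 0.1 to 1 RPKM included Kcnk12, Kcnq5, Kcnh2, Kcnk6, Kcns1, Kcnip4, Kcnmb1, Kcnd3, Kcnq1, Kcnab1, Kcnh4, Kcnk3, Kcnrg, Kcnmb3, Kcnj2, Kcnk7_1 and Kcng2. In the fit without a filter on low values, which called 1 of 18207 genes (0.00549%) without the block and 0 with it, none of the 18 passed; 4 of them had an unadjusted p under 0.05 (7.56% of all genes did). Their median log2 fold change was 0.06, beside −0.00 over all genes, with 11 higher and 7 lower in calcium-high. Limma-voom on recovered reads without the block called 3 of the 18 as higher, Kcnk3 and Kcnrg among them, where 5.83% of genes were called and 4.41% as higher. With the block it called none of the 18, where 7.90% of genes were called.

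Two-pore domain channels were 4 of these. Kcnk3, an acid-sensitive background channel, had 0.345, 0.276, 0.165, 0.324, 0.311, 0.283 and 0.342 RPKM in calcium-high libraries 1 to 7, and 0.0362, 0.287, 0.0342, 0.116, 0.198, 0.140 and 0.120 RPKM in calcium-low libraries 1 to 7. Calcium-low 1, 3, 4, 6 and 7 lay below every calcium-high library, and in replicate 2 the calcium-low library was the higher of the pair. The means were 0.292 ± 0.0623 RPKM in the calcium-high and 0.133 ± 0.0891 RPKM in the calcium-low libraries (SD, n = 7 each). The limma adjusted p of Kcnk3 was 0.212 without a filter, 0.0356 in limma-voom without the block and 0.112 with it, on 209 recovered reads in the calcium-high and 98 in the calcium-low libraries.

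Kcnk12, a silent or weakly active background channel subunit, went the other way. It had 0.214 to 1.33 RPKM (median 0.799) in the calcium-high and 0.245 to 1.81 RPKM (median 1.32) in the calcium-low libraries, and it was lower in calcium-high in 6 of 7 pairs (limma-voom with the block, log2 fold change −0.77, adjusted p = 0.0573). In replicates 4 to 7 with median-of-ratios scaling it passed (log2 fold change −0.47, limma adjusted p = 0.0218). There 706 of 9744 genes passed, 470 of them as lower. Kcnk6, a weakly rectifying background channel, had 0.328 to 1.18 RPKM (median 0.708) in the calcium-high and 0.303 to 0.723 RPKM (median 0.535) in the calcium-low libraries, higher in calcium-high in 6 of 7 pairs. Kcnk7_1, a label with a copy suffix of Kcnk7, had 0.0780 to 0.299 RPKM in the calcium-high and 0 to 0.143 RPKM in the calcium-low libraries and was higher in 7 of 7 pairs on 61 reads in the calcium-high and 18 in the calcium-low libraries (limma adjusted p = 0.279 without a filter). Among genes that averaged 1 RPKM or more, 2.49% were higher in 7 of 7 pairs. No share is given for lower genes.

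The remaining named members were an auxiliary subunit, modifier subunits and one gene that is no channel. Kcnab1, a beta subunit, averaged 0.304 ± 0.115 RPKM in the calcium-high and 0.190 ± 0.0966 RPKM in the calcium-low libraries (SD, n = 7 each) and was higher in 7 of 7 pairs (limma adjusted p = 0.680 without a filter). As for Kcnk7_1, no share of such genes is given at this level. Kcns1, a modifier subunit without current of its own, averaged 0.303 RPKM in the calcium-high and 0.409 RPKM in the calcium-low libraries, and Kcng2, another modifier, averaged 0.142 RPKM in the calcium-high and 0.0708 RPKM in the calcium-low libraries. Kcnrg, a regulator that carries the label's letters and forms no channel, averaged 0.222 RPKM in the calcium-high and 0.142 RPKM in the calcium-low libraries (limma-voom adjusted p = 0.0247 without the block and 0.364 with it). Kcnk3, Kcnab1, Kcng2, Kcnq1, Kcnq5, Kcnip4 and Kcnd3 share exons with genes on the opposite strand in the annotation. Their reads carry the same limit as those of Kcnj13.

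By label class, the 61 members under 0.1 RPKM were 24 voltage-gated pores, 14 inward rectifiers, 8 calcium-activated and 8 two-pore domain members and 7 auxiliary subunits. Kcng2, with a mean of 0.107 RPKM, was the lowest member above that limit. The highest value of any of them in a library was 0.510 RPKM, that of Kcne1l in calcium-high 7.

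Genes that share the membrane potential with these channels showed no call in either fit on log2(RPKM + 1). Of 43 genes in 8 lists, chosen with earlier results of these data known, 42 matched a label and 21 averaged 1 RPKM or more, 12 higher and 9 lower on average in calcium-high. The sodium-potassium pump, which builds the gradient, was led by its regulator Fxyd5 at 26.5 ± 5.76 RPKM in the calcium-high and 29.1 ± 7.22 RPKM in the calcium-low libraries (SD, n = 7 each). Calmodulin, the calcium sensor of Kcnn4, was led by Calm2 at 34.4 ± 6.53 RPKM in the calcium-high and 39.9 ± 16.9 RPKM in the calcium-low libraries and by Calm3 at 18 ± 6.12 RPKM in the calcium-high and 19.7 ± 3.12 RPKM in the calcium-low libraries.

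Calcium entry channels were at levels like those of the leading potassium channels. Orai3 had 8.06 ± 2.41 RPKM in the calcium-high and 7.38 ± 1.86 RPKM in the calcium-low libraries, and the channel kinase Trpm7 had 5.99 ± 1.88 RPKM in the calcium-high and 6.79 ± 3.18 RPKM in the calcium-low libraries (SD, n = 7 each). The potassium-chloride exporter Slc12a7 had 4.88 RPKM in the calcium-high and 4.64 RPKM in the calcium-low libraries. Of the organelle channels the lysosomal channel Tmem175 had 3.68 RPKM in the calcium-high and 3.77 RPKM in the calcium-low libraries, and Letm1 of mitochondria had 2.48 RPKM in the calcium-high and 2.50 RPKM in the calcium-low libraries. The sulfonylurea receptors Abcc8 and Abcc9, the hyperpolarisation-activated Hcn2, Hcn3 and Hcn4 and the partner subunits Lrrc26, Lrrc52, Lrrc55, Dpp6 and Dpp10 all averaged under 1 RPKM, led by Hcn3 at 0.533 RPKM, Hcn2 at 0.124 RPKM, Abcc9 at 0.0425 RPKM and Lrrc55 at 0.00822 RPKM. Named after its values were seen, the importer Slc12a2 had 4.20 ± 0.723 RPKM in the calcium-high and 3.35 ± 0.866 RPKM in the calcium-low libraries (SD, n = 7 each). It was higher in 7 of 7 pairs, as were 2.49% of all genes tested. It passed in limma-voom with the block (adjusted p = 0.0131), where 8.46% of genes were called and 5.51% as higher.

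Promoters are shown for Kcna3 and Kcnk5, which some fits called, and for Kcnn4, the member with the highest mean, which no fit called. They are given for their base composition and 3 motifs of factors known to act downstream of calcium or in blood cells. Each is 250 bases before to 50 after the start, from RefSeq on GRCm38.p6, where 65 of the 87 members matched. The motifs, searched on both strands, were AP-1 (TGANTCA), the NFAT core (GGAAA) and the RUNX core (TGTGGT), and capitals mark their matches, none of which overlapped another.
Kcna3 promoter (chr3:107035912-107036211, plus strand): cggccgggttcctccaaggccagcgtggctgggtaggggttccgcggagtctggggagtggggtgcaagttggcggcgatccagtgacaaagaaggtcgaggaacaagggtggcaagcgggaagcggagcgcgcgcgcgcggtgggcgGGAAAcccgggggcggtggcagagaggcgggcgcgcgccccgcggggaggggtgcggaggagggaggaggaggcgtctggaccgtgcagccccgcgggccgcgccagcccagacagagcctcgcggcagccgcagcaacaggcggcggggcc
Kcnk5 promoter (chr14:20181733-20182032, minus strand): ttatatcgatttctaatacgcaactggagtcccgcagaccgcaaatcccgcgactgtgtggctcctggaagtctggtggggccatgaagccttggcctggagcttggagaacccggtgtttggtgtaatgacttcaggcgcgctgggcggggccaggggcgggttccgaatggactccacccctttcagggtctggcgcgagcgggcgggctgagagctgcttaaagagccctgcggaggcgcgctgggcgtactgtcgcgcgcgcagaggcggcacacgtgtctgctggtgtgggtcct
Kcnn4 promoter (chr7:24370013-24370312, plus strand): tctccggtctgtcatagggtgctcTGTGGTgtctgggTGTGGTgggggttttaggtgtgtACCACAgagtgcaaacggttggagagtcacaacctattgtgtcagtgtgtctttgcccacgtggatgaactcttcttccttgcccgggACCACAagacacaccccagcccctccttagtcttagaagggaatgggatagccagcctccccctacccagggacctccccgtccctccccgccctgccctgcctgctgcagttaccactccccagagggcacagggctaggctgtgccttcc
The Kcna3 promoter was 75% G and C, with CpG at 0.952 of the number its base composition gives, and the Kcnk5 promoter was 63.7% with 0.878. The Kcnn4 promoter was 59.7% with a CpG ratio of 0.226. Kcnn4 held 4 RUNX core matches, Kcna3 held 1 NFAT core match and Kcnk5 held none of the 3 motifs. Of all 32851 promoters of this length, 16.8% held the RUNX core, 61.3% the NFAT core and 7.81% AP-1. A match describes these letters and not a binding site.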

How the data were processed

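The 14 libraries, 7 calcium-high and 7 calcium-low, were grouped and numbered by their labels. Each deposited file holds RPKM values made by the authors for a single library. No unit stands in the file header, and RPKM was inferred because a gene's values are whole multiples of a step. GRCm38, mm10 and edgeR appear in the submitters' processing notes of the authors' own work, without a version. How reads were aligned and counted, and on which annotation, is not given in the sources used here. Of 48737 labels per file, 23 appear as serial numbers in some files and were left out. All columns of per-sample values were used.

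Reads were recovered from the RPKM steps: 9848 of 9848 genes above 0 in all libraries that averaged 1 RPKM or more came out whole within 0.02 reads. That check does not cover labels above 0 in a single library. Such a label comes out as 1 read whatever its value, so no reads are given for it. The library totals behind the RPKM came to 14.3 to 37.2 M reads. Differences are log2 fold changes, calcium-high minus calcium-low, from limma 3.58.1 in R 4.3.3, with a trend of variance on mean, on log2 of RPKM plus a pseudocount of 1, which understates changes of low genes. Genes that averaged 1 RPKM or more were tested. Limma-voom with library quality weights was run on the recovered reads. The scripts were tested on simulated data. Floors and depths cover counting error only.

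Whether the blocked fit would be given was decided by a correlation before the fits were compared. For each number, the deviations of the 2 libraries from their groups' means had a correlation of 0.384 to 0.715, above the limit of 0.1 in all 7 pairs. What a number marks is not stated, and in 5 of 14 libraries the best partner carried the same number. Libraries of a replicate set also share their depth, so that correlation cannot show that a number marks a pair. Replicates 1 to 3 and 4 to 7 were also fitted apart because of their depth. The first set is mixed: replicates 1 and 2 held reads of Y chromosome genes, and replicate 3 held at most 3.

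Named are all members that averaged 1 RPKM or more, the 10 at 0.1 to 1 RPKM with the smallest unadjusted p in the fit without a filter, any member called with or without the block, and in the other lists the called genes and the 2 with the highest level. Some genes that fall under this rule are not reported here. Members and lists were chosen with earlier results of these data known. Alternatives were scaling, pseudocount, filter, block, replicate sets and left-out libraries. Chosen after the data were seen were leaving out replicate 3 of both groups, calcium-high 5 and 6 or pairs 5 and 6, the block within a replicate set, lower filters with limma-voom or with the block and a pseudocount of 0.1, each set with median-of-ratios scaling, and the term for the difference between sets. Coordinates and coding sequence come from GENCODE M21 on GRCm38, promoters from RefSeq (GRCm38.p6). Python 3.11.15, pandas 2.3.3, numpy 2.4.6, scipy 1.17.1 and matplotlib 3.10.9 were used.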

Additional observations from a re-analysis of the deposited data

Results flagged for a closer look

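In 4 of 36 groups of 7 libraries examined among the named members, 1 library lay far from the others; chance gives about 5% of groups. Kcng2 had 0.508 RPKM in calcium-high 3, against 0.0287 to 0.172 RPKM in the rest of calcium-high. Kcnk3 had 0.165 RPKM in calcium-high 3, against 0.276 to 0.345 RPKM in the rest of calcium-high. Kcnk5 had 4.99 RPKM in calcium-low 3, against 6.40 to 6.89 RPKM in the rest of calcium-low, and Kcnrg had 0.593 RPKM there, against 0 to 0.211 RPKM. Replicate 3 is the pair with the most erythroid marker RNA in each group, 76.5 RPKM in calcium-high 3 beside 144 RPKM in calcium-low 3, and the part of that RNA in these values was not tested.

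Kcnn4 moved in opposite directions in the replicate sets, lower in calcium-high in all 3 pairs of replicates 1 to 3 and higher in all 4 pairs of replicates 4 to 7. The log2 fold changes of the sets differed by 0.51 (limma adjusted p = 0.117 with no block and 0.0561 with it), beside a median difference between the sets of 0.31 over all genes tested.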

How the results depend on the processing

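Counts of calls depended on the model, the scaling and replicate 3. Genes called numbered 0 in the fit reported and 91 with the replicate block. They numbered 4 with median-of-ratios and 3 with upper-quartile scaling, 1 without a filter, 51 with the replicate set as a term, 831 in replicates 4 to 7 and 122 without replicate 3 of both groups. With the block they numbered 92 with a pseudocount of 0.1, 98 with a filter of 0.1 RPKM, 121 with both, 326 with median-of-ratios scaling, 1 in replicates 1 to 3 and 764 in replicates 4 to 7, and 706 in replicates 4 to 7 with median-of-ratios scaling and no block. Limma-voom called 700, 839 with the block, 765 with the lower filter and 1036 with both. Leaving out 1 library gave 0 to 101 (the highest without calcium-high 3), and leaving out replicates 1 to 7 in turn with the block gave 8, 3, 313, 0, 12, 2 and 0. Without calcium-high 5 and 6, and with the block without pairs 5 and 6, 0 genes were called.

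Members called were 0 in the fit reported and 0 with the replicate set as a term, where Kcna3 had a limma adjusted p of 0.111. They were 1 (Kcna3) with the block, also with its pseudocount of 0.1, its filter of 0.1 RPKM or its other scaling but not without a filter, and 2 (Kcna3 and Kcnk5) in limma-voom, with or without the block, and in replicates 4 to 7, with or without the block. They were 3 in replicates 4 to 7 with median-of-ratios scaling and 5 in limma-voom with the lower filter, 2 of these with the block. With the block and without 1 pair they were 0 to 2. Of all genes, 0.917% were called with the block, 7.06% and 8.46% in limma-voom without and with it, and 8.52% in replicates 4 to 7. With median-of-ratios scaling there, 706 of 9744 genes were called. The lower filter let in the 8 members and the 18 at 0.1 to 1 RPKM. There limma-voom called 5.83% of genes, and 7.90% with the block. Of the other lists 1 gene was called in limma-voom and 2 in limma-voom with the lower filter. In replicates 4 to 7 also 1 was called, but none of the 21 that averaged 1 RPKM or more over all libraries.

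The block on log2(RPKM + 1) over all libraries changed no other member's call. Kcna3 kept its sign in all 48 fits, at −0.93 to −0.39, and Kcnk5 in all 48, at 0.09 to 0.68. Signs turned in members near 0, none of them called. Kcnj13 was −0.02, and 0.014 with upper-quartile scaling, 0.0456 in limma-voom with the block, 0.0647 with the lower filter too, 0.18 in replicates 1 to 3 and 0.34 there after median-of-ratios scaling. Kcnn4 was 0.06, and −0.24 in replicates 1 to 3 and −0.0264 there after that scaling, where Kcnh6 was 0.11. Without calcium-high 5 and 6 Kcnj13 was 0.137 and Kcnn4 −0.131, and without pairs 5 and 6, with the block, they were 0.140 and −0.0737. Without 1 library Kcnj13 ranged from −0.112 to 0.0492, Kcnn4 from −0.0440 to 0.150 and Kcnd1 from −0.0971 to 0.0337. With the block Kcnj13 was 0.0446 and Kcnn4 −0.000242 without replicate 5, and Kcnj13 was 0.0537 without replicate 6. The cause was not tested.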
